A study of Mus musculus with 9 samples.

Results

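The 10 genes described here are Chac1 and 9 genes of the integrated stress response: Atf4, Atf3, Ddit3, Trib3, Asns, Psat1, Slc7a11, Sesn2 and Ddit4. They were taken by symbol from the 19938 genes with a single symbol on the arrays, and each was read by 1 probe set. Chac1 was selected on its log2 values in these same arrays (model above HPYD above control), so its levels and differences are given as a description, without a test. The other genes were picked as genes of the same response, and the question was whether Chac1 moved with them from array to array.

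Whole-transcript arrays (GeneChip Mouse Gene 1.0 ST) were hybridised with RNA of 9 brain samples, 3 per group. The HPYD group were APP/PS1 transgenic mice that received HPYD, a β-sheet breaker peptide designed against aggregation of the amyloid-β peptide, through the nose in saline (33 mg/mL, 5 μL per day, 30 days). The model group were APP/PS1 transgenic mice that received the same volume of saline, and the control group were C57/6J mice that received saline as well. At purchase the transgenic mice were 8 months old, and the controls were described as matched in age and background. All mice had been through a water maze test before the brains were taken. The sources used here give neither the promoter of the transgenes nor the sex of the mice. They also leave unsaid whether the arrays of a group were of different animals, so the p-values cover the spread between arrays only, which may be technical. The values are log2 signals as the authors deposited them. No detection calls came with them, so a low value cannot be told from background, and levels are compared between arrays and never between genes.

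In the integrated stress response, kinases that sense amino acid shortage, unfolded protein, haem shortage or viral RNA phosphorylate the translation factor eIF2α. Most protein synthesis then slows, while translation of Atf4 increases, and this transcription factor switches on genes for amino acid supply, redox balance, feedback and, when the stress lasts, cell death. Much of that control acts on translation, so that the mRNA of Atf4 is only a partial readout of its activity. Chac1 is one of its targets and encodes an enzyme that splits glutathione inside the cell. In Alzheimer's disease models, phosphorylation of eIF2α in the brain has been studied widely in relation to memory.

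Some features of the arrays bear on every comparison. The array labelled HPYD group 3 went against its label, since App was 12.53 in it, against 12.98 and 13.01 in the other HPYD arrays, 12.95 to 13.02 in the model arrays and 12.56 to 12.62 in the control arrays. Prnp, the prion protein gene, whose promoter is used in common APP/PS1 lines, was 11.52 in that array, against 12.54 and 12.47 in the other HPYD arrays and 11.76 to 11.81 in the control arrays. Xist, the non-coding RNA of the silenced X chromosome in females, was between 11.18 and 11.78 in HPYD group 1 and 2 and in all model arrays, against 5.22 in the array labelled HPYD group 3 and 5.20 to 5.69 in the control arrays. The Y-linked gene Kdm5d had the opposite pattern, with 7.84 in the array labelled HPYD group 3 and 7.62 to 7.77 in the control arrays. Nnt, which is deleted in part in the C57BL/6J substrain, was 7.95 and 7.96 in HPYD group 1 and 2 and 7.96 to 8.15 in the model arrays. It was 8.87 to 9.01 in the control arrays. The array labelled HPYD group 3, at 8.57, lay between these ranges. The arrays labelled C57/6J were thus the higher ones for a gene that this substrain lacks in part. Genotype, sex and substrain therefore cannot be told apart between the model and control groups, although the background was described as matched. Finally, the 20 skeletal muscle genes had a median that exceeded the control mean by 0.77 in HPYD group 2 and by 2.08 and 3.72 in model group 1 and 2, and lay between -0.06 and 0.07 in the other 6 arrays. The 17 genes of granulocytes did the same, at 2.09 in HPYD group 2, 3.09 and 3.42 in model group 1 and 2 and -0.56 to 0.05 in the other arrays. Of 12 neuronal genes, 9 were lower for model versus control (median -0.13), as were 10954 of all 19938 genes. Of the 12 neuronal genes, 2 were apart and lower, against 4.68% of all genes. Snap25, the one of highest signal, was 13.08 to 13.27 in all 9 arrays, but Camk2a, a kinase of excitatory neurons, was 12.02 in the array labelled HPYD group 3 and 12.08 in model group 2, against 12.92 to 13.06 in the other 7 arrays.

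The Atf4 protein binds with a C/EBP partner to a composite element, here searched as TGATGNAA on both strands in the 250 bases before and 50 bases after each gene start. The RefSeq promoters of GRCm38.p6 covered all 10 genes, and 5 of them held the element, against 3.97% of 32851 promoters. It was found in Chac1, Atf3, Trib3, Slc7a11 and Asns, and these letters were not in the windows of Atf4, Ddit3, Sesn2, Ddit4 and Psat1. The 250 bases before the start of Chac1 (chr2:119350992-119351241, plus strand) are printed because Chac1 leads the results. The short windows of the other genes show how the element compares, with capitals marking the element as it reads on the gene's own strand (TTGCATCA is TGATGCAA on the opposite strand).
Chac1: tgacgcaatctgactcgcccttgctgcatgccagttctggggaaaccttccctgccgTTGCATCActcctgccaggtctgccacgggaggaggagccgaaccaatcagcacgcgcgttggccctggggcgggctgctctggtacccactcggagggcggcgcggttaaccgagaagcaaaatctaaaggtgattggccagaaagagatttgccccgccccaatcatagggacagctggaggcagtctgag
Atf3: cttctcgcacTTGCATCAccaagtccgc
Trib3: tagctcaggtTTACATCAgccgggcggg
Slc7a11, first: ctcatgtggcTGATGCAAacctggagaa
Slc7a11, second: cctggagaatTTGCATCAtcatgcagcc
Asns: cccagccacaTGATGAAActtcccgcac
In Chac1 the element lay at bases -193 to -186 from the start, and in Atf3 at -110 to -103 (window chr1:191183426-191183453, minus strand). Trib3 had it just after the start, at bases 15 to 22 (chr2:152344029-152344056, minus strand). Slc7a11 had it at -66 to -59 and at -47 to -40 (chr3:50443662-50443689 and chr3:50443643-50443670, minus strand), and Asns at -23 to -16 (chr6:7693215-7693242, minus strand). The short site TGACGT, which CREB and ATF proteins bind, was searched the same way and found only in Atf3 among the 10 genes, at bases -8 to -3, against 7.51% of all promoters. A match describes the letters of these windows and is no evidence of binding.

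Chac1 was the member with the widest differences between the groups. Its signal was 8.07, 8.11 and 8.16 in the HPYD arrays, 8.34, 8.43 and 8.36 in the model arrays and 7.69, 7.93 and 7.89 in the control arrays. The 3 groups did not overlap at any point. All model arrays were above all HPYD arrays, with a gap of 0.18 between the nearest arrays, and all HPYD arrays were above all control arrays, with a gap of 0.15. The means were 8.11 ± 0.04 (HPYD), 8.37 ± 0.05 (model) and 7.83 ± 0.13 (control) (SD, n = 3 each). The difference of means was 0.54 on the log2 scale for model versus control (standard error 0.07, 1.45-fold), -0.26 for HPYD versus model (standard error 0.07, 0.83-fold) and 0.28 for HPYD versus control (standard error 0.07, 1.21-fold). Of all 19938 genes, 6 had this order with the 3 groups apart, which is 0.0301%. Chac1 was selected for this order, so its place among them is no result. The array labelled HPYD group 3 was the highest of its group for Chac1, and without it the difference was -0.29 for HPYD versus model and 0.25 for HPYD versus control. Model group 3, in which the muscle genes were 0.06 from the control mean, had a Chac1 signal between those of the model arrays with raised muscle genes. The part of muscle RNA in these values was not tested. Over the alternative settings, some of which cannot move the value, the difference of this gene chosen on these arrays lay between 0.47 and 0.59 for model versus control, between -0.29 and -0.23 for HPYD versus model and between 0.21 and 0.34 for HPYD versus control.

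**Figure D1:**
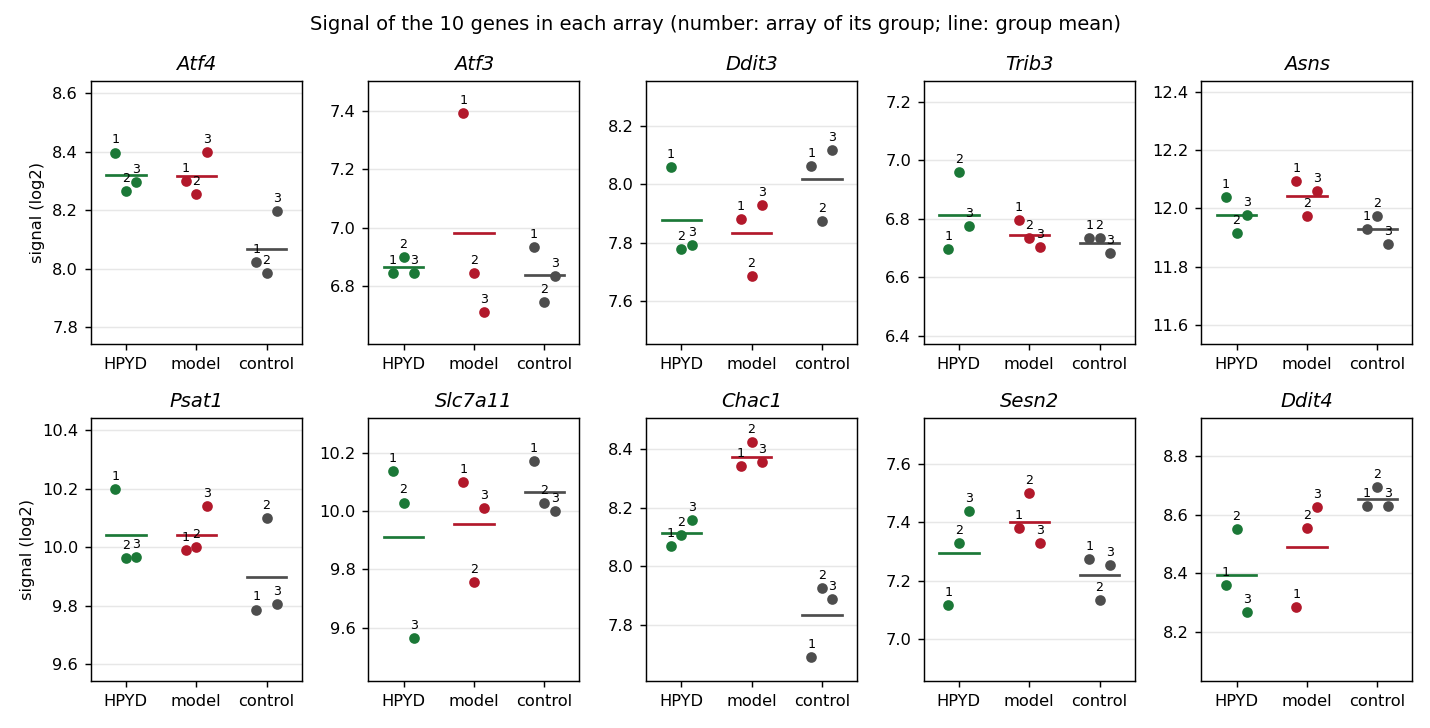
Signal (log2, vertical axis, every panel spanning the same range) of the 10 genes in the HPYD, model and control arrays. Points are arrays, numbered within their group, and lines are group means (n = 3). In the Chac1 panel the 3 groups lie apart, with means of 8.11 for HPYD, 8.37 for model and 7.83 for control arrays. Chac1 was chosen for that order, and no other panel shows it without overlap.

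Atf4, the transcription factor at the centre of the response, was above the control arrays in both APP/PS1 groups, whose means were equal at 2 decimals. Its signal was 8.40, 8.27 and 8.30 in the HPYD arrays, 8.30, 8.25 and 8.40 in the model arrays and 8.02, 7.98 and 8.20 in the control arrays. All 6 arrays labelled APP/PS1 were thus above all control arrays, as were 1.72% of all genes. The difference was 0.25 for model versus control and 0.25 for HPYD versus control (standard error 0.08 each, 1.19-fold each), and 0.00 for HPYD versus model (standard error 0.08). The unadjusted p of limma was 0.011 and 0.0108 for the comparisons with control, and the adjusted p was 0.859 and 0.86, so that Atf4 did not pass. When every array was shifted to the same median, its arrays overlapped between model and control and between HPYD and control. Control group 3, at 8.20, was nearest to the APP/PS1 arrays. The array labelled HPYD group 3, with control-like App and Prnp, had 8.30, and without it the difference for HPYD versus control was 0.26.

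The other transcription factors and the feedback gene did not follow Chac1. Ddit3 (CHOP), a factor that promotes cell death in lasting stress, was 8.06, 7.78 and 7.79 in the HPYD arrays, 7.88, 7.69 and 7.93 in the model arrays and 8.06, 7.87 and 8.12 in the control arrays. The groups overlapped, and the difference was -0.19 for model versus control (standard error 0.11), the opposite sign to Chac1. Atf3, a factor induced by many stresses, was 6.85, 6.90 and 6.85 in the HPYD arrays, 7.39, 6.85 and 6.71 in the model arrays and 6.94, 6.75 and 6.83 in the control arrays. Model group 1 stood alone at the top, and its difference for model versus control was 0.14 with that array and -0.06 without it. Trib3, a pseudokinase that is induced by Atf4 and dampens it, was 6.70, 6.96 and 6.78 in the HPYD arrays, 6.80, 6.73 and 6.70 in the model arrays and 6.73, 6.73 and 6.68 in the control arrays. The range over all 9 arrays was 0.28 for Trib3, and 0.74 for Chac1, which was chosen on these values. Trib3, and Atf3 in all arrays but model group 1, lay near the array medians (6.69 to 6.82). The narrow range of Trib3 and the low values of Atf3 cannot be told from a lack of detection.

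Of the genes of amino acid supply, Asns and Psat1 were slightly higher in the model than in the control arrays and Slc7a11 was lower (-0.11), each within the spread of the arrays. Asns, which makes asparagine, was 12.04, 11.92 and 11.98 in the HPYD arrays, 12.09, 11.98 and 12.06 in the model arrays and 11.93, 11.98 and 11.88 in the control arrays. Its model and control arrays met at 11.98, and the difference was 0.11 (standard error 0.06). Psat1, an enzyme of serine synthesis, was 10.20, 9.96 and 9.97 in the HPYD arrays, 9.99, 10.001 and 10.14 in the model arrays and 9.79, 10.10 and 9.80 in the control arrays. Control group 2 lay inside the range of the APP/PS1 arrays, and the difference was 0.15 (standard error 0.11) both for model and for HPYD versus control. Slc7a11, the subunit of the cystine-glutamate exchanger that supplies cysteine for glutathione, was 10.14, 10.03 and 9.57 in the HPYD arrays, 10.10, 9.76 and 10.01 in the model arrays and 10.17, 10.03 and 9.999 in the control arrays. Its low values were those of model group 2 and the array labelled HPYD group 3, and the difference for HPYD versus control was -0.16 with the array labelled HPYD group 3 and 0.02 without it.

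The members that restrain mTORC1, the kinase complex that promotes protein synthesis, went in opposite directions. Sesn2, a leucine sensor that holds mTORC1 back, was 7.12, 7.33 and 7.44 in the HPYD arrays, 7.38, 7.50 and 7.33 in the model arrays and 7.27, 7.13 and 7.25 in the control arrays. The model arrays were above the control arrays, with a gap of 0.05 and a difference of 0.18 (standard error 0.09), whereas the HPYD arrays spanned both groups. Ddit4 (REDD1), which acts on mTORC1 through the TSC complex and is also induced by glucocorticoids and low oxygen, was 8.36, 8.55 and 8.27 in the HPYD arrays, 8.29, 8.55 and 8.63 in the model arrays and 8.63, 8.70 and 8.63 in the control arrays. All 6 arrays labelled APP/PS1 were below the control arrays, as were 1.88% of all genes, but the gap between model group 3 and the nearest control array was 0.00 at 2 decimals. The difference was -0.16 for model versus control and -0.26 for HPYD versus control (standard error 0.10 each), the second with an unadjusted p of 0.038 and an adjusted p of 0.86 by limma.

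**Figure D2:**
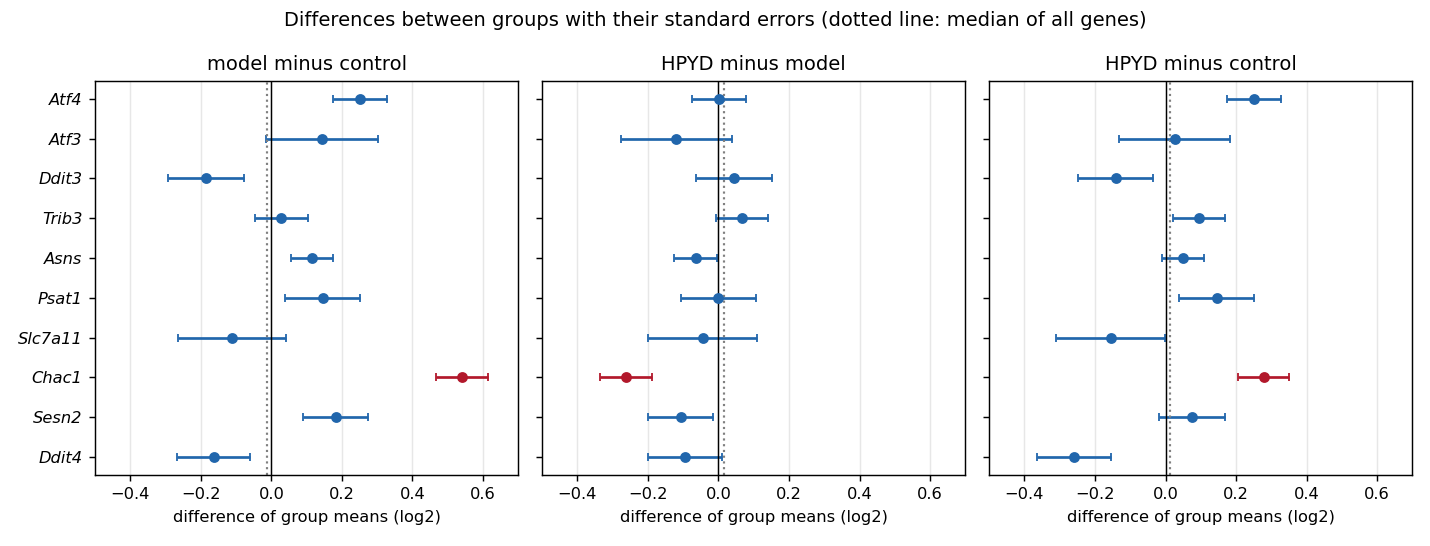
Difference of group means (log2, horizontal axis) of each gene for model minus control, HPYD minus model and HPYD minus control. Points are differences and bars are standard errors of the fit over all 9 arrays (n = 3 per group), and the dotted line is the median of all genes. Chac1, in red, is at 0.54, -0.26 and 0.28, while the other genes lie between -0.19 and 0.25, between -0.12 and 0.07 and between -0.26 and 0.25.

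Taken as a list, the 9 other members differed little between the groups. For model versus control, 6 were higher and 3 lower, with a median difference of 0.11, against -0.01 over all genes. The median was 0.00 without model group 1, so the figure rests on that array. The arrays did not overlap for 3 of the 9 (Atf4 and Sesn2 higher, Ddit4 lower), against 9.52% of all genes, and of these Sesn2 alone remained apart when every array was shifted to the same median. For HPYD versus model, 3 were higher and 6 lower, with a median of -0.04 against 0.02, and 0 of 9 were apart, against 3.22% of all genes (2.24% higher and 0.983% lower). The median there was 0.01 without the array labelled HPYD group 3. For HPYD versus control, 6 were higher and 3 lower, with a median of 0.05 against 0.01, and Atf4 and Ddit4 were apart, against 9.52% of all genes. By limma, 0 of the 9 passed an adjusted p under 0.05 in any comparison (0.859 to 0.957 for model versus control, 1.0 for HPYD versus model and 0.86 to 0.976 for HPYD versus control), and neither did any other gene, the background being 0.0% in each. At an unadjusted p under 0.05, Atf4 was the only one for model versus control, 0 of 9 were below it for HPYD versus model, and Atf4 and Ddit4 were for HPYD versus control, against 4.92%, 1.97% and 3.24% of all genes. The comparisons share arrays and are therefore not independent of each other.

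Over the 9 arrays, Chac1 went with some members and against others. Pearson's r with Chac1 was 0.70 for Atf4, 0.63 for Asns, 0.62 for Sesn2 and 0.50 for Psat1, then 0.20 for Atf3 and 0.14 for Trib3, and it was -0.40 for Ddit4, -0.41 for Slc7a11 and -0.65 for Ddit3. The median over the 9 members was 0.20, against -0.04 over all other genes, and it was 0.08 without model group 1 and 0.39 without model group 3. Part of each r is the difference between the groups. When the group means were removed, r with Chac1 was -0.06 for Atf4, -0.23 for Asns, 0.13 for Sesn2 and 0.27 for Psat1, and the median over the members was -0.06. It was -0.53 for Ddit3 and -0.63 for Slc7a11. The points share their arrays and, for control against the rest, genotype, sex and substrain, and these r values are a description. Among the other members, Psat1 and Asns went together (0.69), as did Slc7a11 and Ddit3 (0.63), while Sesn2 went against both of those (-0.67 with Slc7a11 and -0.68 with Ddit3).

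**Figure D3:**
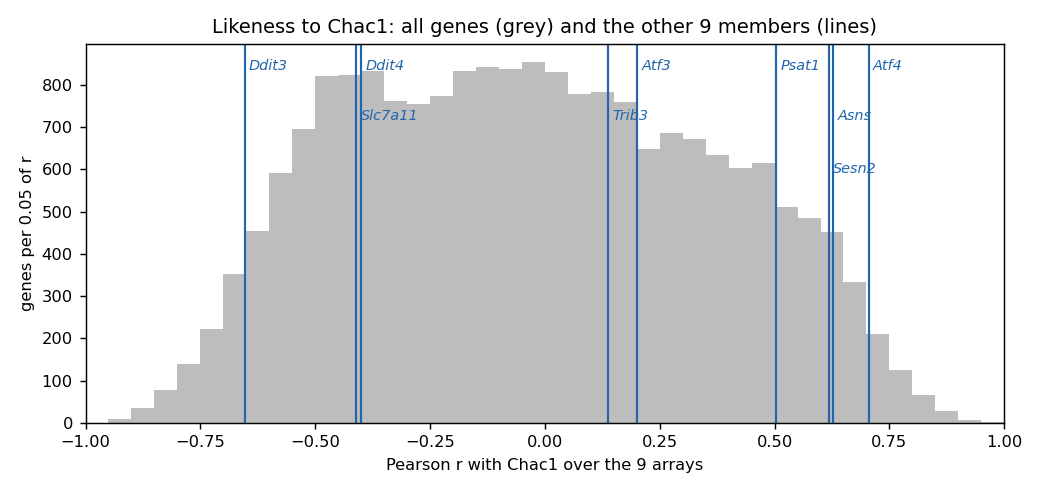
Pearson's r with Chac1 over the 9 arrays (horizontal axis) for all other genes (grey, number of genes per bin, vertical axis) and for the other 9 members (blue lines). Atf4, Asns, Sesn2 and Psat1 lie between 0.50 and 0.70, and Ddit3, Slc7a11 and Ddit4 between -0.65 and -0.40, so that the members spread over most of the range of all genes.

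Of the 9969 genes with a mean signal of at least 7.49, the median of all genes, those with the highest r with Chac1 were not among the members. They were Wipf1, a partner of the actin regulator WASP (r of 0.95), Pgghg, an enzyme that removes glucose from collagen (0.94), Rell1, a membrane protein related to the TNF receptor partner RELT (0.90), Kdm6a (0.89) and Gpd1, the cytosolic glycerol-3-phosphate dehydrogenase (0.89). With the group means removed, r was 0.77 for Wipf1, 0.86 for Pgghg, 0.62 for Rell1, 0.37 for Kdm6a and 0.75 for Gpd1. These genes are extremes picked from 9969 over 9 arrays, so their r values are a description only. Kdm6a is an X-linked histone demethylase gene that escapes X inactivation. Its signal was 9.03, 8.74 and 8.89 in the HPYD arrays, 9.01, 9.40 and 9.08 in the model arrays and 8.52, 8.57 and 8.69 in the control arrays, so that all model arrays were above all control arrays. The array labelled HPYD group 3, with low Xist, lay between the other HPYD arrays for Kdm6a. The genes least like Chac1 were Mrps26, a mitochondrial ribosomal protein gene (-0.92), Lonrf2, which encodes a RING finger protein (-0.91), and the pseudogene Pisd-ps2 (-0.91). With the group means removed, their r was -0.27, -0.54 and -0.67.

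Above Atf4 in the pathway stand the kinases, the phosphatase and eIF2 itself. Of the 4 eIF2α kinase genes, 3 were higher in the model arrays with a median difference of 0.08, and 0 were apart, against 9.52% of all genes, and a count of 0 in so short a list is near that share. Eif2ak3 (PERK), the kinase of the endoplasmic reticulum, was 8.36, 8.36 and 8.44 in the HPYD arrays, 8.34, 8.46 and 8.34 in the model arrays and 8.33, 8.15 and 8.45 in the control arrays. Eif2ak4 (GCN2), the amino acid sensor, averaged 7.94 ± 0.15, 7.86 ± 0.17 and 7.94 ± 0.06 in the HPYD, model and control groups (SD, n = 3 each). Among 7 genes that remove or restrain the phosphorylation, the median difference was 0.02 for model versus control, and Ppp1ca, a catalytic subunit of protein phosphatase 1, was apart and lower (-0.24, standard error 0.11). Ppp1r15a (GADD34), which directs that phosphatase to eIF2α and is itself an Atf4 target, was named outside the rule and differed by 0.25 for model versus control with overlapping arrays (standard error 0.12). Among 7 subunits of eIF2 and its exchange factor eIF2B, Eif2s3x was apart and higher (0.53, standard error 0.11) and Eif2b2 apart and lower (-0.13, standard error 0.06). Eif2s3x is X-linked and escapes X inactivation, and its signal in the array labelled HPYD group 3 was 11.20, against 11.65 and 11.49 in the other HPYD arrays and 11.01 to 11.18 in the control arrays. Of 13 factors that can pair with Atf4 or act beside it, 3 were apart for model versus control, all higher, against 4.83% of all genes in that direction: Nfe2l2 (0.39, standard error 0.09), Cebpg (0.19, standard error 0.07) and Atf5 (0.18, standard error 0.10).

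Targets of Atf4 beyond the 9 members lay higher in the model arrays more often than lower. Of 40 listed, 36 were measured, and 25 were higher and 11 lower for model versus control, with a median difference of 0.10 against -0.01 over all genes. For 9 of them all model arrays were above all control arrays and for 0 below, against 4.83% and 4.68% of all genes. For HPYD versus control the counts were the same, 25 and 11, with a median of 0.08 and 7 apart and higher, against 4.78% of all genes. For HPYD versus model they were 16 and 20 with a median of 0.00. There 0 were apart and higher and 1 apart and lower, against 2.24% and 0.983% of all genes. For HPYD versus model, the median over these 36 genes was 0.00 and the difference of Chac1 was -0.26. Chac1 was chosen for that difference, so the values side by side do not show that it departs from the list. By limma, 0 passed an adjusted p under 0.05 in any comparison. With every array shifted to the same median, 22 were higher for model versus control, with 5 apart and higher and 2 apart and lower, against 2.82% and 10.5% of all genes. The list shares genes with the phosphatase and Atf4 partner lists above. It also shares genes with the enzyme, transporter, synthetase, unfolded protein, mTORC1 and p53 lists below. Atf5, Cebpg, Gadd45a and Eif4ebp1, all apart and higher for model versus control, are thus counted in more than 1 list. The lists were drawn up with earlier results of these arrays known.

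The widest differences in that list were in mitochondrial one-carbon metabolism and stood in particular arrays. Mthfd2, a mitochondrial folate enzyme, was 7.70, 7.95 and 8.29 in the HPYD arrays, 7.69, 8.40 and 7.71 in the model arrays and 7.42, 7.39 and 7.32 in the control arrays. All arrays labelled APP/PS1 were above the control arrays, and the difference was 0.56 for model and 0.60 for HPYD versus control (standard error 0.21 each). Aldh1l2, which completes the same mitochondrial pathway, was 6.64, 6.70 and 7.59 in the HPYD arrays, 6.54, 7.69 and 6.65 in the model arrays and 6.46, 6.43 and 6.19 in the control arrays. Its values of 6.19 to 6.70 lay near or below the array medians (6.69 to 6.82), so they cannot be told from a lack of detection. Both genes were highest in the array labelled HPYD group 3 and in model group 2. The same arrays had the lowest medians of the 15 immediate early genes, at -0.84 and -0.94 from the control mean, as well as low values of some neuronal genes. Syt1, a synaptic vesicle gene, was 12.40 in the array labelled HPYD group 3 and 12.37 in model group 2, against 12.87 to 12.98 elsewhere, and Camk2a was low in both. Pvalb, a gene of fast muscle and of some inhibitory neurons, was 11.73 and 12.06 there, against 9.39 to 10.56 elsewhere. The part of these genes in the result was not tested. Egr1, one of these activity genes, was 8.97 in the array labelled HPYD group 3 and 9.27 in model group 2, against 10.30 to 10.57 in the other 7 arrays. Chac1 was also the highest of its group in each of these arrays, at 8.16 and 8.43.

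Amino acid transporters of the response and the synthetases followed the same direction by small amounts. Of 12 transporters, 10 were higher for model versus control (median 0.12) and 10 for HPYD versus control (median 0.20), and 7 for HPYD versus model (median 0.02). Slc7a5, the large neutral amino acid transporter, was 10.44, 10.79 and 10.98 in the HPYD arrays, 10.67, 10.79 and 10.73 in the model arrays and 10.44, 10.41 and 10.54 in the control arrays. Slc38a2 (SNAT2) was 11.55, 11.61 and 11.70 in the HPYD arrays, 11.53, 11.70 and 11.38 in the model arrays and 11.38, 11.34 and 11.32 in the control arrays. The nearest model and control arrays of Slc38a2 were equal at 2 decimals. Slc3a2, the heavy chain shared by Slc7a5 and Slc7a11, differed by 0.10 for model versus control (standard error 0.06), and these 3 transporters were the ones apart, against 4.83% of all genes higher. After quantile normalization 1 of the 12 was apart and higher, against 4.72% of all genes. Of 17 aminoacyl-tRNA synthetases, 11 were higher for model versus control (median 0.05), with 4 apart and higher, including Nars (0.11), Sars (0.12) and Iars (0.17), and Hars apart and lower, against 4.83% and 4.68% of all genes. Hars was 9.10, 9.13 and 9.12 in the HPYD arrays, 9.08, 9.01 and 9.18 in the model arrays and 9.41, 9.31 and 9.37 in the control arrays, a difference of -0.27 for model versus control (standard error 0.06). With every array shifted to the same median the synthetases had 9 of 17 higher, with 1 apart and higher and 2 apart and lower, against 2.82% and 10.5% of all genes, so that the lower count was near the background.

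Genes around glutathione, the substrate of Chac1, showed small differences. Of 17 measured, 12 were higher for model versus control with a median of 0.05, and only Gclc, the catalytic subunit of the first enzyme of glutathione synthesis, was apart (-0.09, standard error 0.05), against 9.52% of all genes in either direction. Chac2, the paralog of Chac1 and named outside the rule, was 8.68, 8.16 and 8.30 in the HPYD arrays, 8.54, 8.37 and 8.67 in the model arrays and 8.34, 8.49 and 8.49 in the control arrays, with overlap throughout. Among 11 targets of the antioxidant factor Nrf2, 1 was apart and higher for model versus control (Me1, malic enzyme, 0.19, standard error 0.06). A pair was apart and lower, namely Gclc and Srxn1 (sulfiredoxin, -0.19, standard error 0.05), against 4.83% of all genes higher and 4.68% lower.

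The unfolded protein response of the endoplasmic reticulum, which shares the kinase Eif2ak3 with the integrated stress response, had its most genes apart between the HPYD and control arrays. Of 24 genes, 17 were higher for HPYD versus control with 8 apart and higher and 0 lower, against 4.78% and 4.74% of all genes, and 15 were higher for model versus control with 5 apart and higher, against 4.83%. The list median from the control mean was 0.18, 0.06 and -0.02 in the HPYD arrays, 0.14, -0.01 and 0.01 in the model arrays and -0.02 to 0.01 in the control arrays, so that HPYD group 1 was the highest and the array labelled HPYD group 3 was at the control level. Without HPYD group 1, 14 were higher for HPYD versus control (median 0.02), with 8 apart and higher and 3 apart and lower, against 17.5% and 13.2% of all genes. Without the array labelled HPYD group 3, 22 were higher for HPYD versus control with 11 apart and higher, against 7.32% of all genes. Hspa5 (BiP), its main chaperone, was 11.83, 11.65 and 11.60 in the HPYD arrays, 11.54, 11.48 and 11.44 in the model arrays and 11.57, 11.46 and 11.42 in the control arrays. The HPYD arrays were thus above both other groups, by 0.20 and 0.21 in the mean (standard error 0.08 each, adjusted p of 1.0 and 0.86 by limma). Edem1, which sends misfolded glycoproteins to degradation, was closer to the pattern of Chac1, with 8.61, 8.65 and 8.44 in the HPYD arrays, 8.85, 8.83 and 8.66 in the model arrays and 8.47, 8.38 and 8.50 in the control arrays. Its HPYD and control arrays overlapped. Sdf2l1 averaged 9.17 ± 0.27 in HPYD arrays, 8.96 ± 0.13 in model arrays and 8.69 ± 0.04 in control arrays (SD, n = 3 each). With every array shifted to the same median, 12 of the 24 were higher for HPYD versus control, with 5 apart and higher and 0 lower, against 2.55% and 10.2% of all genes.

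Other routes that act on the same members gave mixed values. In the mTORC1 and Sestrin list of 17 genes, 11 were lower for model versus control (median -0.05), with 1 apart and higher and 3 apart and lower, against 4.83% and 4.68% of all genes, shares that also stand beside the counts of the next lists. Rragd, a GTPase that places mTORC1 on lysosomes, was apart and lower (-0.35, standard error 0.13), as was the Sestrin gene Sesn3 (-0.24, standard error 0.09), while Eif4ebp1, a translation repressor and Atf4 target, was apart and higher (0.39, standard error 0.16). Of 10 p53 targets, Gadd45a was the one apart (0.33, standard error 0.11). For the 12 glucocorticoid response genes, among which Ddit4 could be counted, the median was 0.01 for model versus control, 0.14 for HPYD versus model and 0.06 for HPYD versus control. For HPYD versus control 4 of them were apart and higher and 0 lower, against 4.78% and 4.74% of all genes, whereas Ddit4 was lower. Chac1 is also described as a brake on Notch maturation, and of 12 Notch genes 3 were higher and 9 lower for model versus control with a median of -0.05 and with Jag2, a Notch ligand, apart (-0.21, standard error 0.09).

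**Figure D4:**
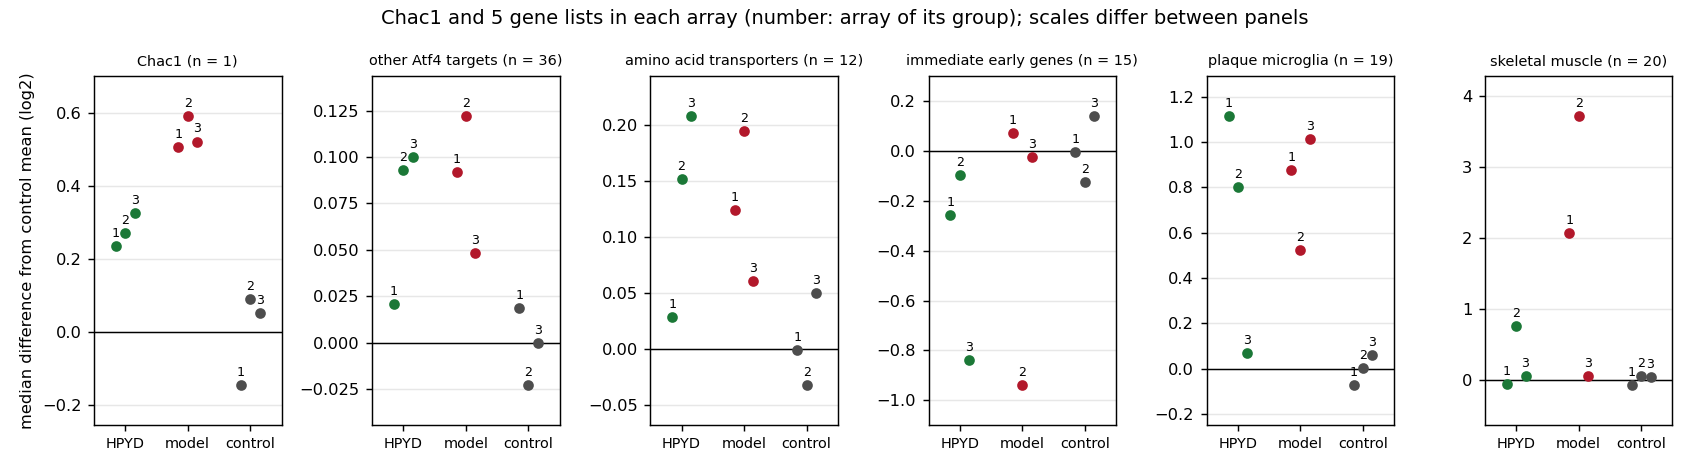
Median difference from the control mean (log2, vertical axis, scale differs between panels) of Chac1 and of 5 gene lists in each HPYD, model and control array; points are arrays, numbered within their group. The other Atf4 targets reach 0.10 in the array labelled HPYD group 3 and 0.12 in model group 2, the immediate early genes are lowest in these arrays, and the muscle genes reach 2.08 and 3.72 in model group 1 and 2.

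Markers of some cell types had a positive r with Chac1, and those of others a negative one. The median r with Chac1 was 0.67 for the 19 genes of plaque-associated microglia, 0.66 for the muscle genes and 0.61 for the 9 oligodendrocyte genes. All of these genes (19 of 19, 20 of 20 and 9 of 9) had a higher mean in the model than in the control arrays. This was not particular to them, since it held for 17 of 17 granulocyte, 9 of 9 choroid plexus and 9 of 10 astrocyte genes. For endothelium and pericytes it held for 6 of 10, for general microglia for 5 of 9 and for neurons for 3 of 12. The median r was lower for the other cell type lists. It was 0.53 for granulocytes, 0.50 for choroid plexus, 0.47 for astrocytes and 0.33 for endothelium and pericytes. For the general microglia list it was -0.08, and for neurons -0.41. The genes of plaque-associated microglia had medians of 1.12, 0.80 and 0.07 above the control mean in the HPYD arrays, 0.88, 0.52 and 1.01 in the model arrays and -0.07 to 0.06 in the control arrays. In the array labelled HPYD group 3 these genes stood at the control level while Chac1 was at 8.16, above the control arrays and above the other HPYD arrays. Leaving out the 3 arrays with raised muscle genes left model group 3 as the only model array. The difference of Chac1 was then 0.52 for model versus control, -0.24 for HPYD versus model and 0.28 for HPYD versus control. With the muscle level as a covariate it was 0.50, -0.23 and 0.27. The oligodendrocyte genes had medians of 0.49, 0.09 and 0.38 from the control mean in the HPYD arrays, 0.07, 0.52 and 0.47 in the model arrays and -0.15, 0.38 and -0.22 in the control arrays. Chac1 was chosen on these arrays, and the part of microglial, muscle and oligodendrocyte RNA in its differences was not tested. In bulk tissue, more cells that express a gene and more RNA per cell cannot be told apart.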

How the data were processed

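Brain RNA of 9 samples was measured, 3 in each group, and groups were taken from the sample titles. The authors deposited 1 table of log2 values for 35556 probe sets. For the processing, MAS5 is named in the submitters' notes (no version), and the sources used here do not state a normalization. The labels name Trizol and biotinylated cRNA, whereas the paper describes a column kit and labelled cDNA.

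Gene names were read from the platform annotation. A single symbol was given for 21789 probe sets, several for 1621 and none for 12146, and each of 19938 genes was represented by its probe set of highest mean. The array medians lay between 6.69 and 6.82, and values were used as they are. The groups were fitted together with limma 3.58.1 in R 4.3.3 (6 residual and 2.13 prior degrees of freedom), with Benjamini-Hochberg adjustment over all genes. Groups were called apart when no array of one group overlapped those of the other.

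The members, the 16 pathway and 9 cell type lists and the tests were chosen with earlier results of these data known. Genes named were the members, the 5 most and 3 least like Chac1, up to 3 members with the highest mean and 2 with the largest non-overlapping difference per list, and checks of the labels. Alternatives were other scalings, leaving out dim genes, array weights, other variance models, the arrays compared alone, a replicate block, joining probe sets by their mean, Spearman's rho and leaving out each array. After seeing the data, fits without the 3 arrays with raised muscle genes, or with the muscle level as a covariate, were added, as were the counts of genes apart under each scaling and without each array. Without those 3 arrays, model group 3 was the only model array.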

Additional observations from a re-analysis of the deposited data

How the results depend on the processing

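Chac1 was chosen on these values, so its sign and order under other settings are no sign of stability. The count of genes called was 0 in each comparison and also 0 with the replicate number as a replicate block, in which Chac1 differed by 0.54 for model against control. With the group mean of each gene removed, the deviations of same-numbered arrays correlated between -0.32 and 0.18. Arrays with different numbers were not compared, so whether the numbers pair the arrays was not settled. With only the 6 arrays compared, 5 genes were called for model against control. Leaving out 1 array gave 0 to 7 genes for model against control and 0 to 8 for HPYD against control, the higher counts without the array labelled HPYD group 3. An unadjusted p under 0.05 held for 980, 393 and 646 genes for model against control, HPYD against model and HPYD against control.

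The median difference of the 9 other members for model against control was 0.07 with every array shifted to the same median, -0.01 without the 3 arrays with raised muscle genes, 0.04 with the muscle level as a covariate and 0.00 to 0.13 leaving out 1 array. For HPYD against model, leaving out 1 array gave -0.08 to 0.01, and for HPYD against control the shift to the same median gave 0.00. The median r with Chac1 was 0.02 without the muscle-raised arrays and 0.08 to 0.39 leaving out 1 array. The causes were not tested.

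Signs of single members turned under some settings, including differences of 0.14 (Atf3, model against control), -0.12 (Atf3, HPYD against model) and -0.16 (Slc7a11, HPYD against control). For model against control, Trib3 was -0.02 after either other scaling, -0.01 without the muscle-raised arrays and -0.03 with the muscle covariate, and Atf3 was -0.13 without those arrays and -0.06 to 0.28 leaving out 1 array. For HPYD against model, Atf4 was 0.00 after the median shift, -0.03 with array weights, -0.05 without the muscle-raised arrays, -0.07 with the muscle covariate and -0.04 to 0.04 leaving out 1 array. Ddit3 was -0.01 with array weights, 0.00 without the muscle-raised arrays, -0.07 with the muscle covariate and -0.05 to 0.09 leaving out 1 array. Atf3 was 0.14 without the muscle-raised arrays and -0.26 to 0.09 leaving out 1 array, Psat1 was 0.01 after quantile normalization and -0.08 to 0.05 leaving out 1 array, Trib3 was -0.01 to 0.12 and Slc7a11 -0.16 to 0.13. For HPYD against control, Atf3 was -0.03 after the median shift, -0.02 after quantile normalization, 0.00 with array weights and -0.02 to 0.07 leaving out 1 array, Asns was 0.00 after the median shift, and Slc7a11 was -0.27 to 0.02. The other 477 values of single members, those of Chac1 included, kept their sign. Some settings cannot move a difference, and no gene was called in the main fit, so this count is no measure of stability. The number of arrays limits the precision.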
